A study of Mus musculus with 24 samples.

Results

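The 9 genes described here encode the mouse MHC class I heavy chains H2-K1, H2-D1, H2-M3, H2-Q4, H2-Q6, H2-Q7, H2-T22 and H2-T23 and their shared light chain, beta-2 microglobulin (B2m). They were taken by their gene symbols from the 55401 genes of the deposited tables. The estimated counts of all transcripts of a gene were added up. The rule that took them uses symbols and no measured value, but it was set with earlier results of these data known. Bulk RNA sequencing libraries came from male C57BL/6 mice 11 weeks old given either propyzamide, which as a herbicide acts on the microtubules of plants, or vehicle alone. Libraries were labelled as unstimulated (no anti-CD3), or as taken 3 h or 24 h after anti-CD3, which activates T cells through their antigen receptor. With 4 libraries each, the 6 groups were propyzamide unstimulated, vehicle unstimulated, propyzamide 3 h, vehicle 3 h, propyzamide 24 h and vehicle 24 h. All groups share strain, sex and age, and the labels name no stimulus other than anti-CD3. The series title speaks of T cells in a model of inflammatory bowel disease. Neither tissue, cell sort nor dose is named in the sources used here, which also do not say whether replicates were separate animals, so p-values measure only the spread between these libraries.

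MHC class I molecules carry short peptides from inside the cell to its surface, where CD8 T cells and natural killer cells read them. A heavy chain reaches the surface only after it has paired with beta-2 microglobulin and been loaded in the endoplasmic reticulum with a peptide, most of which are cut by the proteasome and pumped in by the TAP transporter. Nearly all nucleated cells express the classical chains, and interferons raise the heavy chains, B2m, TAP and the immunoproteasome together. The promoters of class I genes are known for an upstream block with an NF-kappaB site, an interferon-stimulated response element and a CCAAT box.

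The gene summaries rest on few reads. Total estimated counts ran from 438519 to 2071732 in 23 libraries and reached 9812102 in propyzamide 24 h replicate 3, while named protein-coding genes (those with a proper gene name, without receptor families of smell and mitochondrial genes) took 3.73 to 9.63% of the counts in the 23 and 30% in the deepest. The gene model Gm10800 alone took 41.9 to 50.3% of the counts in the 23 and 20.8% in the deepest. The 8 heavy chain genes together had 23 counts in the shallowest library, propyzamide 3 h replicate 3, and 21708 in the deepest. All 9 genes passed the filter on low counts, although H2-M3 had fewer than 10 counts in 18 of 24 libraries and H2-T22 in 15. Markers of several cell types were present beside those of T cells. Summed over named protein-coding counts, T cell genes ran from 176 to 1290 CPM (counts scaled to depth), against 389.5 to 7650 for B cell genes, 308 to 14040 for intestinal epithelium and 3983 to 50050 for Paneth cells. Of the genes for CD3 chains on the list, Cd3e had 0 counts in 7 libraries, Cd3g in 3 and Cd3d in 0. In such bulk samples more cells of a type and more RNA per cell cannot be told apart. The library names carry 1 of 2 i5 indexes: the first in both unstimulated groups and vehicle 3 h, the second in propyzamide 3 h and both 24 h groups. No label calls the index a batch, and between 2 groups that differ in it, index and group cannot be told apart.

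All 8 heavy chain genes lie in the major histocompatibility complex on chromosome 17, in GRCm38 coordinates with the GENCODE annotation. H2-K1 (minus strand, 33996017 to 34000347) stands apart from the others. H2-D1 (plus strand, 35262730 to 35267499) is followed by the Q genes H2-Q4 (35379617 to 35385290), H2-Q6 (35424850 to 35430055) and H2-Q7 (35439155 to 35443773), all on the plus strand. Farther along lie H2-T23 (36029773 to 36032855) and H2-T22 (36037128 to 36042747), both on the minus strand, and then H2-M3 (plus strand, 37270220 to 37274484). B2m lies on the plus strand of chromosome 2, 122147686 to 122153083.

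The stretches below are shown so that the upstream regions of the 7 genes called at 24 h can be compared letter by letter with those of H2-M3 and H2-Q4, which were not called. Each is part of a RefSeq promoter of build GRCm38.p6, which spans 250 bases before to 50 after the gene's start, and is written 5′ to 3′ on the gene's own strand (for H2-K1, the first of its listed starts). Capitals mark matches, on either strand, to an NF-kappaB-type motif (GGGATTNCC), to either of 2 interferon-response-type motifs (GAANNGAAA and GAAANNGAA) and to the first CCAAT box after them, and no 2 of the marked matches overlap.
H2-K1: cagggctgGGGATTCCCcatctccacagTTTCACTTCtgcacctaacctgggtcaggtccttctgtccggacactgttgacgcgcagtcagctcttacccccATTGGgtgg
H2-D1: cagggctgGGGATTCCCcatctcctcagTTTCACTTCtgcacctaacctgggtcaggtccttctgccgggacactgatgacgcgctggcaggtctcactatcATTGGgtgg
H2-Q4: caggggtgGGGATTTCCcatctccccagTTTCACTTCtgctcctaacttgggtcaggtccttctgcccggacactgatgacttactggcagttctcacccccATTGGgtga
H2-Q6: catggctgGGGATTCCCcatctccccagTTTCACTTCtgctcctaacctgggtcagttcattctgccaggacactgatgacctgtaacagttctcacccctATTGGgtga
H2-Q7: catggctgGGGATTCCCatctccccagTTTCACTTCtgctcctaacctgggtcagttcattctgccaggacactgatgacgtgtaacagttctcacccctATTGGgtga
H2-M3: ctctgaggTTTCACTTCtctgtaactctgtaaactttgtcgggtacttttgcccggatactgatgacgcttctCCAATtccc
H2-T22: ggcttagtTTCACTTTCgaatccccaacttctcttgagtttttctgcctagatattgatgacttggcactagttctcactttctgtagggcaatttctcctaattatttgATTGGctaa
H2-T23: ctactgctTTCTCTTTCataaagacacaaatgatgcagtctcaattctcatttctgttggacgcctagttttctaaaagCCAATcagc
B2m: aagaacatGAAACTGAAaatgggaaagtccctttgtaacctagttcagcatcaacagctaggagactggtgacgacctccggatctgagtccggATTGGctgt
They are chr17:34000355-34000465 for H2-K1, chr17:35262916-35263026 for H2-D1, chr17:35379436-35379546 for H2-Q4, chr17:35424670-35424779 for H2-Q6 and chr17:35439015-35439123 for H2-Q7. The others are chr17:37270125-37270206 for H2-M3, chr17:36042822-36042940 for H2-T22, chr17:36032745-36032832 for H2-T23 and chr2:122147540-122147642 for B2m. An interferon-response-type match was found in all 9 promoters, against 14.8% of the 32851 promoters in the table. The form GAANNGAAA was in 6 of 9 (7.52% of all promoters) and GAAANNGAA in the other 3, H2-T22, H2-T23 and B2m (8.56%). The NF-kappaB-type motif was in 5 of 9, all in H2-K1, H2-D1 and the Q genes, against 0.938% of all promoters. H2-Q4 matched it as GGGATTTCC and the other 4 as GGGATTCCC. In these 5 promoters the NF-kappaB-type match began 19 or 20 bases before the interferon-type match, which in turn began 73 or 74 bases before the CCAAT box. Both kinds of match together were found in 59 of the 32851 promoters (0.18%). CCAAT boxes were in 9 of 9, against 37.4% of all promoters. Class I promoters are known for these kinds of site and the motifs were chosen with that in mind. The shares over all promoters therefore describe how rare the motifs are and are no test of the 9 genes. A match describes letters in this window and does not show that a factor binds there.

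Compared per unit of transcript length, B2m and the classical chains led. The deposited TPM (an abundance corrected for transcript length) of B2m was the highest of the 9 genes in 23 of 24 libraries. Among the heavy chains, H2-K1, a classical chain that presents peptides to CD8 T cells, made up 40.4 ± 7.07% of the heavy chain TPM (mean ± SD, n = 24 libraries), and H2-D1, the other classical chain of this strain, 32.1 ± 8.66%. H2-K1 stood above H2-D1 in 17 of 24 libraries, so the order of this pair is within their spread. H2-T23, which encodes Qa-1 and presents leader peptides to the CD94/NKG2A receptor of natural killer cells, held 9.08 ± 2.91% and had rank 4 among the 9 genes in 20 libraries. The Q genes H2-Q7 (5.42 ± 2.38%), H2-Q4 (4.88 ± 6.74%) and H2-Q6 (4.42 ± 1.82%) overlapped over all stages, where 1 shallow 3 h library put H2-Q4 at 35%. At 24 h they did not all overlap, with H2-Q7 at 6.05 to 10.8% and H2-Q6 at 3.47 to 8.79%, both above H2-Q4 at 0.626 to 3.27% in every library. H2-M3, which presents formylated peptides of bacteria and mitochondria, held 1.899 ± 1.11%, and H2-T22, a ligand of some gamma-delta T cells that carries no peptide, 1.797 ± 1.54%. Paralogs share sequence here. Of the distinct stretches of 31 bases in its transcripts, H2-T22 shared 51.01% with some other gene (47.2% with H2-T10), H2-Q6 50.3%, H2-Q7 39.1% and H2-Q4 38.4%. The shared part was 26.7% for H2-D1, 24.4% for H2-T23, 22.8% for H2-K1 and 4.62% for H2-M3, and B2m shared none. Splits of reads among the Q genes and between H2-T22 and H2-T10 are therefore uncertain.

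At 24 h after anti-CD3 most class I genes were higher than without stimulation. Of the 9 genes 7, H2-K1, H2-D1, H2-Q6, H2-Q7, H2-T22, H2-T23 and B2m, passed an adjusted p of 0.05 in the mean of both treatments, by 2.48-fold (H2-T23) to 4.07-fold (H2-T22). H2-M3 and H2-Q4 did not pass. Across all genes tested, 55 of 3799 (1.45%) were called higher and 90 of 3799 (2.37%) were called in either direction. The median log2 fold change of the 9 genes was 1.37, against -0.01 over all genes tested and 0.18 over the 2464 named protein-coding genes.

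The classical chains show the size of the change. H2-K1 had 153, 250.2, 227 and 206 CPM in the 4 propyzamide 24 h libraries and 139, 188, 185 and 92.9 CPM in the 4 vehicle 24 h libraries, against 68.5, 38.7, 91.4 and 67.02 CPM without stimulation after propyzamide and 37.1, 96.4, 43.03 and 60.2 CPM without stimulation after vehicle. This is a log2 fold change of 1.501 ± 0.303 (SE, 8 libraries a stage; adjusted p = 0.00444, edgeR). Of the 8 libraries at 24 h, 7 lay above every unstimulated library, and vehicle 24 h replicate 4 was just inside the unstimulated range. H2-D1 had 138, 236, 242 and 257 CPM in the 4 propyzamide 24 h libraries and 224, 255, 187 and 141 CPM in the 4 vehicle 24 h libraries, against 88.5, 80.1, 112 and 91.6 CPM without stimulation after propyzamide and 56.1, 106, 42.01 and 77.8 CPM without stimulation after vehicle. All 8 libraries at 24 h were above all 8 unstimulated libraries for H2-D1, with a log2 fold change of 1.37 ± 0.36 (SE, 8 libraries a stage; adjusted p = 0.0318, edgeR). How many of all genes tested show such a separation was not counted, here or for the other genes below. The H2-D1 call was lost when 1 of 9 libraries was left out, with adjusted p up to 0.0823 in edgeR. These were vehicle unstimulated replicates 1, 3 and 4, propyzamide unstimulated replicates 1 and 2, vehicle 24 h replicates 2 and 3, and propyzamide 24 h replicates 2 and 4.

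**Figure D1:**
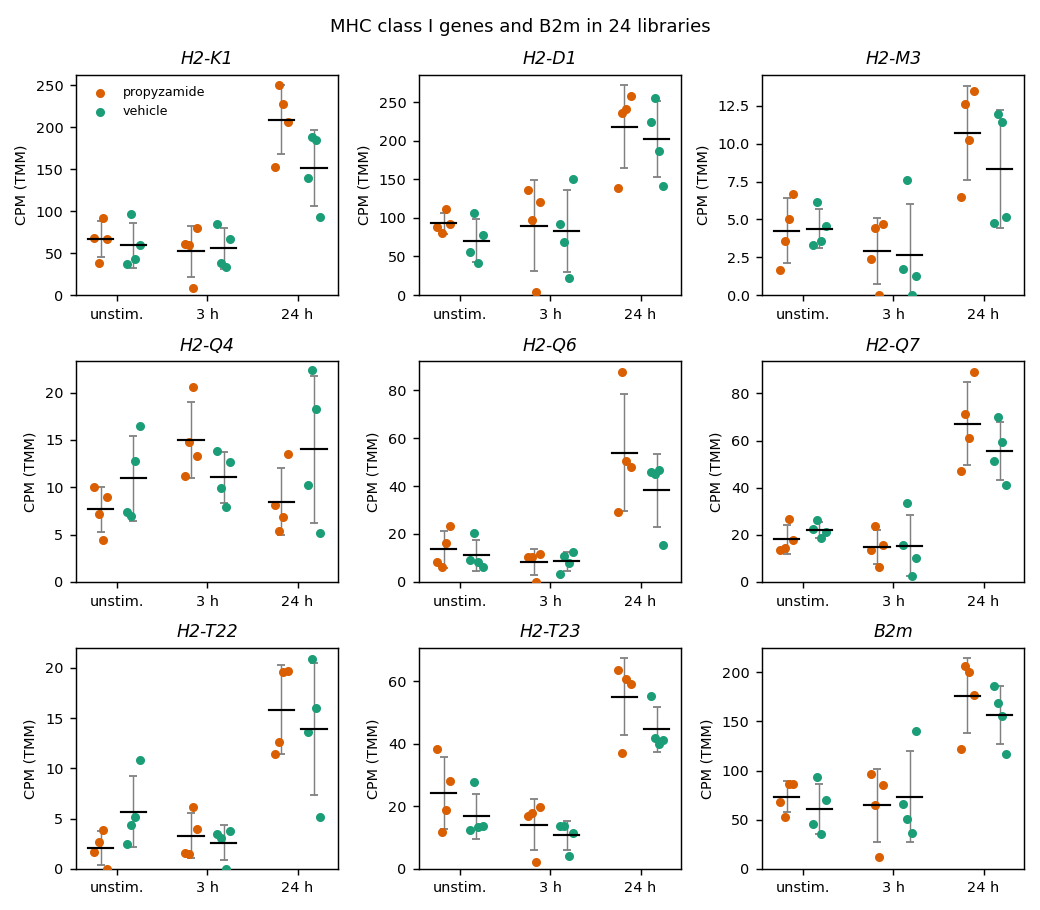
TMM-normalized CPM of each gene in each of the 24 libraries (points; orange propyzamide, green vehicle), with the mean (black line) and SD (grey bar) of the 4 libraries of a group; every vertical axis starts at 0. All 24 h libraries of H2-D1, H2-Q7 and B2m lie above all unstimulated ones, and the H2-Q4 panel shows overlapping groups.

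B2m, the light chain of every member, rose as well. B2m had 122, 206, 200.1 and 176 CPM in the 4 propyzamide 24 h libraries and 186, 169, 155 and 117 CPM in the 4 vehicle 24 h libraries, against 68.5, 53.1, 85.8 and 86.01 CPM without stimulation after propyzamide and 45.4, 92.9, 35.9 and 69.8 CPM without stimulation after vehicle. The lowest 24 h library, at 117 CPM, was above the highest unstimulated one, at 92.9 CPM. The test gave a log2 fold change of 1.31 ± 0.300 (SE, 8 libraries a stage; adjusted p = 0.0129, edgeR), and B2m shares no 31-base stretch with any other gene.

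Among the Q genes, which encode Qa-2 and related chains, 2 of 3 rose. H2-Q7 had 47.2, 71.3, 61.1 and 89.3 CPM in the 4 propyzamide 24 h libraries and 51.2, 70.2, 59.4 and 41.3 CPM in the 4 vehicle 24 h libraries, against 13.4, 14.4, 26.8 and 17.9 CPM without stimulation after propyzamide and 22.3, 26.3, 18.4 and 21.0 CPM without stimulation after vehicle. No 24 h library overlapped an unstimulated one for H2-Q7, with a log2 fold change of 1.597 ± 0.31 (SE, 8 libraries a stage; adjusted p = 0.00313, edgeR). H2-Q6 had 29.3, 87.6, 50.6 and 47.7 CPM in the 4 propyzamide 24 h libraries and 45.7, 44.8, 46.8 and 15.5 CPM in the 4 vehicle 24 h libraries, against 8.35, 6.297, 16.2 and 23.5 CPM without stimulation after propyzamide and 9.08, 20.6, 8.197 and 6.24 CPM without stimulation after vehicle. For H2-Q6 the lone overlap was vehicle 24 h replicate 4, below 3 unstimulated libraries, and the test gave a log2 fold change of 1.88 ± 0.37 (SE, 8 libraries a stage; adjusted p = 0.00336, edgeR). H2-Q4 had 8.14, 5.42, 6.84 and 13.5 CPM in the 4 propyzamide 24 h libraries and 10.2, 22.4, 18.3 and 5.16 CPM in the 4 vehicle 24 h libraries, against 10.02, 7.197, 4.46 and 8.94 CPM without stimulation after propyzamide and 7.43, 7.01, 12.8 and 16.5 CPM without stimulation after vehicle. H2-Q4 was spread over the same range at both stages, with a log2 fold change of 0.26 ± 0.33 (SE, 8 libraries a stage; adjusted p = 0.711, edgeR) and a 95% interval of -0.43 to 0.95. As a share of the heavy chain TPM, H2-Q4 held 0.626 to 3.27% at 24 h and 1.45 to 8.202% without stimulation.

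H2-T23 and H2-T22 lie in the T region, and H2-T22 and H2-M3 had the lowest median counts of the 9 genes, 4 and 6 a library. H2-T23 had 63.5, 37.03, 60.8 and 59.2 CPM in the 4 propyzamide 24 h libraries and 55.3, 41.8, 39.97 and 41.3 CPM in the 4 vehicle 24 h libraries, against 38.4, 11.7, 18.9 and 27.9 CPM without stimulation after propyzamide and 12.4, 27.6, 13.3 and 13.6 CPM without stimulation after vehicle. For H2-T23, 7 of 8 libraries at 24 h were above every unstimulated library, and propyzamide unstimulated replicate 1 was the exception among the unstimulated ones. The difference was a log2 fold change of 1.31 ± 0.304 (SE, 8 libraries a stage; adjusted p = 0.0138, edgeR), and with no filter on low counts its adjusted p was 0.106. H2-T22 had 11.4, 12.6, 19.6 and 19.7 CPM in the 4 propyzamide 24 h libraries and 13.7, 20.9, 15.99 and 5.16 CPM in the 4 vehicle 24 h libraries, against 1.67, 2.699, 3.902 and 0 CPM without stimulation after propyzamide and 2.48, 4.38, 5.12 and 10.8 CPM without stimulation after vehicle. H2-T22 was under 6 CPM in 7 of 8 unstimulated libraries and above 11 CPM in 7 of 8 libraries at 24 h. It gave a log2 fold change of 2.03 ± 0.43 (SE, 8 libraries a stage; adjusted p = 0.00754, edgeR). H2-M3 had 4.78 to 13.5 CPM at 24 h and 1.67 to 6.702 CPM without stimulation, with 5 of 8 libraries at 24 h above the unstimulated range. Its log2 fold change of 1.09 ± 0.47 did not pass (adjusted p = 0.203, edgeR).

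**Figure D2:**
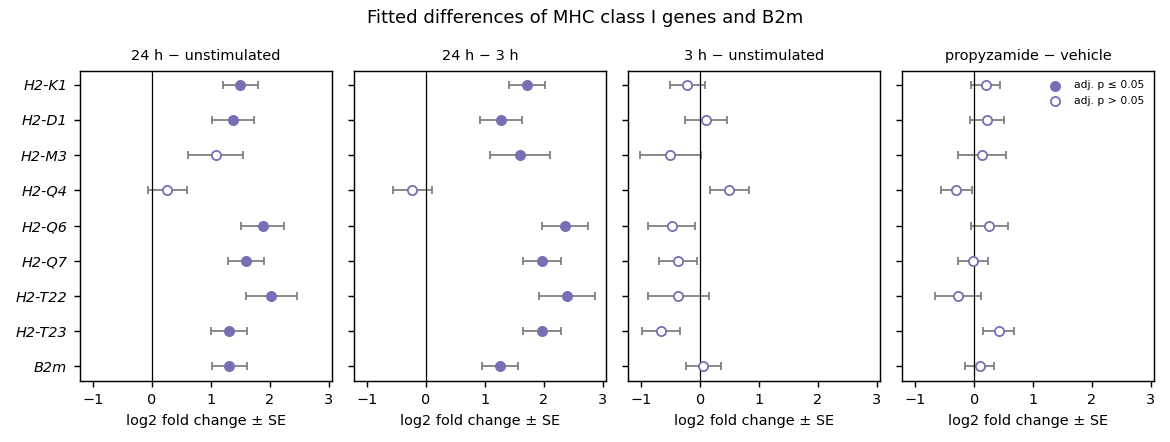
Log2 fold change (point) and standard error (bar) of each gene from the edgeR fit, for 24 h against unstimulated, 24 h against 3 h and 3 h against unstimulated, each a mean of both treatments, and for propyzamide against vehicle as a mean of 3 stages; filled points passed an adjusted p of 0.05. In the first panel 7 of 9 points are filled and in the second 8 of 9, and the remaining panels have none.

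The i5 index changes with the stage and touches this result. In a fit of stage, treatment and index together, no gene of the 9 was called for 24 h against unstimulated. That fit called 2 of all 3799 genes, where the main fit called 90, so the loss of calls is not particular to the 9. Within a stage the index differs only at 3 h, where it goes with the treatment. The fit can tell the 2 apart only if the treatment effect is the same at all stages. The 7 values stayed positive, with 1.87 for H2-K1 (adjusted p = 0.306, edgeR), 2.299 for H2-Q6, 1.72 for H2-Q7 and 1.68 for B2m. H2-D1 had 1.49, H2-T22 1.29 and H2-T23 1.24. Propyzamide 24 h and propyzamide 3 h carry the same index, and their comparison is given below.

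At 3 h after anti-CD3 no difference from the unstimulated libraries was detected in the 9 genes. In the mean of both treatments none was called and none had an unadjusted p under 0.05 in edgeR, while 87 of 3799 (2.29%) of all genes were called in either direction and 583 of 3799 (15.3%) had such a p. Within propyzamide 27 of 3799 (0.711%) of all genes were called at 3 h against unstimulated and within vehicle 11 of 3799 (0.29%), with none of the 9 in either. Within propyzamide H2-Q4 had a log2 fold change of 0.99 ± 0.48 and an unadjusted p of 0.049 in edgeR, the 1 such value under 0.05 in a single treatment. DESeq2 and limma-voom also called none of the 9 in the mean of both treatments, where they called 164 and 85 of all 3799 genes. Values ran from -0.66 for H2-T23 (adjusted p = 0.328) to 0.49 for H2-Q4 (adjusted p = 0.501, edgeR), with 0.05 for B2m, 0.104 for H2-D1 and -0.22 for H2-K1. The 95% interval of H2-K1 was -0.86 to 0.42, and that of B2m -0.58 to 0.68. The median over the 9 genes was -0.37, against -0.05 over all genes tested and -0.27 over named protein-coding genes. At 3 h the libraries were spread widely, with H2-K1 at 60.9, 59.3, 8.23 and 79.3 CPM after propyzamide and 84.8, 38.04, 32.9 and 66.9 CPM after vehicle. The 8.23 CPM belongs to the shallowest library and stands for 4 counts.

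Between 3 h and 24 h, 8 of the 9 genes rose, all but H2-Q4. In this comparison 538 of 3799 (14.2%) of all genes were called higher and 853 of 3799 (22.5%) in either direction, so calls were more common here than against the unstimulated libraries. The log2 fold changes in edgeR were 2.396 ± 0.47 for H2-T22 (adjusted p = 0.00148), 2.36 ± 0.39 for H2-Q6 (adjusted p = 3.44e-04) and 1.97 ± 0.32 for H2-T23 (adjusted p = 3.44e-04). H2-Q7 had 1.97 ± 0.32 (adjusted p = 3.33e-04) and H2-K1 1.72 ± 0.31 (adjusted p = 7.42e-04). H2-K1, H2-Q6, H2-Q7 and H2-T23 had all 8 libraries at 24 h above all 8 at 3 h, though the share of all genes that did so was not counted. The values were smaller for H2-M3 (1.598 ± 0.505, adjusted p = 0.0266), H2-D1 (1.27 ± 0.36, adjusted p = 0.01596) and B2m (1.26 ± 0.302, adjusted p = 0.00695), whose stages overlapped. H2-Q4 had -0.23 ± 0.33 (adjusted p = 0.633, edgeR). The H2-M3 call was lost without vehicle 3 h replicate 3 (adjusted p = 0.0522) and without vehicle 24 h replicates 2 or 3 (0.0573 and 0.0559), and with no filter on low counts (0.165, edgeR). Over named protein-coding genes alone the H2-D1 call (adjusted p = 0.0587) and the H2-M3 call (0.0986) were lost, and with the index in the fit they had 0.0544 and 0.0710 in edgeR.

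Within propyzamide, where 24 h and 3 h libraries share the i5 index, 6 of the 9 genes were called higher at 24 h than at 3 h, among 327 of 3799 (8.61%) of all genes. They were H2-K1 (1.98 ± 0.44, adjusted p = 0.00842), H2-Q6 (2.61 ± 0.55), H2-Q7 (2.16 ± 0.45), H2-T22 (2.38 ± 0.65), H2-T23 (1.89 ± 0.45) and B2m (1.42 ± 0.43, adjusted p = 0.0306, edgeR). H2-D1 (1.26 ± 0.51) and H2-M3 (1.78 ± 0.701) did not pass, and H2-Q4 had -0.82 ± 0.47. Without the shallowest and the deepest library, both in this comparison, 3 of the 9 and 62 of all genes were called, and in a fit of these 2 groups alone 1 of the 9 and 26 of all genes were. B2m lost its call without propyzamide 3 h replicates 2, 3 or 4 or propyzamide 24 h replicates 2, 3 or 4, with adjusted p up to 0.08, and H2-T22 without propyzamide 3 h replicate 1 or propyzamide 24 h replicate 3. Within vehicle the same comparison called none of the 9 and none of all genes in edgeR, with 7 of the 9 and 462 of 3799 (12.2%) of all genes at an unadjusted p under 0.05. Values there were 2.42 ± 0.68 for H2-T22, 2.11 ± 0.55 for H2-Q6, 2.05 ± 0.47 for H2-T23 and 1.46 ± 0.44 for H2-K1. DESeq2 called 5 of the 9 and 79 of all genes, and limma-voom 2 and 6 of all genes. EdgeR called 1 of the 9 without vehicle 3 h replicate 2 or propyzamide 3 h replicate 3 or propyzamide 24 h replicate 3. Over all genes, the edgeR fits that left out 1 library called 0 to 8.

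Against the unstimulated libraries within each treatment, with 4 libraries a group, no gene of the 9 passed in edgeR. The values were, for H2-K1 1.65 ± 0.43 with propyzamide and 1.35 ± 0.43 with vehicle, for B2m 1.27 ± 0.42 with propyzamide and 1.36 ± 0.42 with vehicle, and for H2-Q7 1.86 ± 0.44 with propyzamide and 1.33 ± 0.43 with vehicle. H2-T22 had the widest gap, with 2.77 ± 0.65 with propyzamide and 1.28 ± 0.57 with vehicle, and its test is given with the interactions. With propyzamide, 3 of 3799 (0.079%) of all genes were called, and 7 of the 9 and 547 of 3799 (14.4%) of all genes had an unadjusted p under 0.05. With vehicle, 16 of 3799 (0.421%) of all genes were called, and again 7 of the 9, with 272 of 3799 (7.16%) of all genes, had an unadjusted p under 0.05. DESeq2 called 6 of the 9 and 71 of all genes with propyzamide, and 2 of the 9 and 34 of all genes with vehicle. Limma-voom called none of the 9 and 1 of all genes with propyzamide, and 4 of the 9 and 21 of all genes with vehicle. Without propyzamide 3 h replicate 3, which is in neither group but enters the shared estimate of the spread, edgeR called 4 of the 9 with propyzamide and 1, H2-D1, with vehicle. With propyzamide, calls also appeared without vehicle 3 h replicate 2 (1), vehicle 3 h replicate 3 (2) and propyzamide 24 h replicate 3 (1). Over all genes, the fits that left out 1 library called 0 to 22 with propyzamide and 1 to 30 with vehicle.

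No difference between propyzamide and vehicle was detectable at this depth for any of the 9 genes. As a mean of the 3 stages none was called by edgeR, DESeq2 or limma-voom and none had an unadjusted p under 0.05 in edgeR. Over all genes edgeR called 0 of 3799 (0%), DESeq2 1 and limma-voom 0. In edgeR 326 of 3799 (8.58%) of all genes had an unadjusted p under 0.05. The values ran from -0.305 (H2-Q4) to 0.41 (H2-T23) on the log2 scale, with a median of 0.14, against -0.03 over all genes tested and 0.13 over named protein-coding genes. The 95% intervals were -0.32 to 0.71 for H2-K1, -0.39 to 0.82 for H2-D1, -0.42 to 0.61 for B2m and -1.11 to 0.54 for H2-T22. For this mean of the 3 stages, the intervals of H2-K1 and B2m leave out differences of 2-fold or more in either direction. At 24 h alone they reach past 2-fold, with -0.41 to 1.34 for H2-K1 and -0.70 to 1.04 for B2m. The mean also includes the 3 h stage, where the i5 index goes with the treatment. At the single stages none of the 9 was called either, with the value farthest from 0 for H2-T22 without stimulation, where propyzamide libraries had 1.67, 2.699, 3.902 and 0 CPM and vehicle libraries 2.48, 4.38, 5.12 and 10.8 CPM (-1.29 ± 0.67, adjusted p = 1, edgeR). The difference between treatments in the 24 h response, tested as an interaction, called 0 genes in edgeR. There 89 of 3799 (2.34%) of all genes and 0 of the 9 had an unadjusted p under 0.05. DESeq2 and limma-voom called 0 of the 9, with 2 and 0 of all genes called. The interaction was 0.304 ± 0.595 for H2-K1, -0.29 ± 0.705 for H2-D1, -0.095 ± 0.59 for B2m and 1.496 ± 0.86 for H2-T22 (unadjusted p = 0.0933, edgeR).

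The ratio of heavy to light chain counts overlapped between stages while the share of both in the libraries was higher at 24 h. Summed over the 8 genes, heavy chain counts were 0.568 to 0.904% of the counts in named protein-coding genes at 24 h, 0.129 to 0.452% at 3 h and 0.221 to 0.418% without stimulation. B2m took 0.181 to 0.271% at 24 h, 0.0336 to 0.223% at 3 h and 0.05398 to 0.132% without stimulation. For both, the 24 h libraries did not overlap the unstimulated ones, and the deepest library was within the range of the other 24 h libraries. How many other genes or sums of genes separate in this way was not counted. For each B2m count there were 3.501 ± 0.397 heavy chain counts at 24 h, 3.04 ± 0.729 at 3 h and 3.27 ± 0.373 without stimulation (mean ± SD, n = 8 libraries each). Per transcript length the ratio of heavy chain TPM to B2m TPM was 1.62 ± 0.179 at 24 h and 1.51 ± 0.202 without stimulation. Within the heavy chains, H2-K1 held 39.9 ± 5.01% of the TPM at 24 h and 40.4 ± 4.75% without stimulation, and H2-D1 30.8 ± 3.87% and 32.4 ± 6.24% at these stages.

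**Figure D3:**
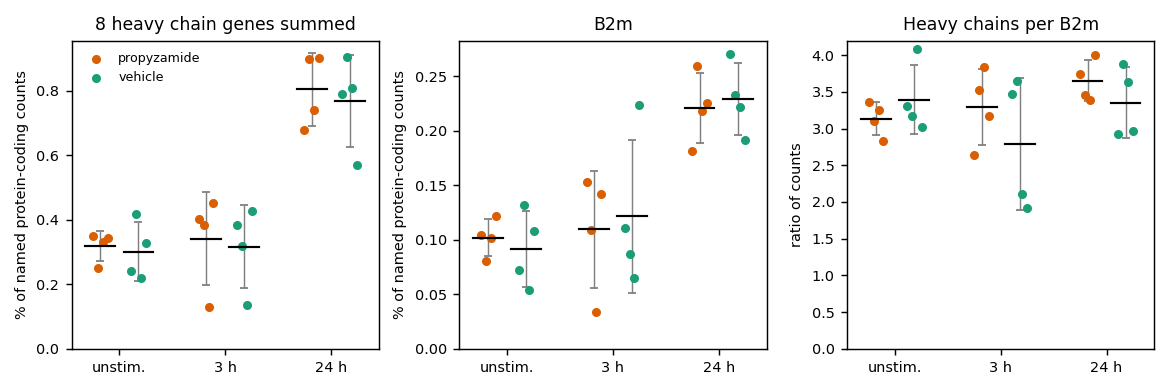
Counts of the 8 heavy chain genes together and of B2m as percent of the counts in named protein-coding genes, and the ratio of heavy chain to B2m counts, per library (points; orange propyzamide, green vehicle), with the mean (black line) and SD (grey bar) of 4 libraries. Both shares are higher in every 24 h library than in any unstimulated one, though how many other sums of genes are was not counted. The ratio stays between 1.92 and 4.09 in all 24 libraries.

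The transcripts behind H2-Q7 differed between stages, a pattern chosen after its values were seen and described here without a test. In the deposited transcript table H2-Q7 has 6 transcripts, of which 4 are protein-coding, and 1 retained-intron model of 4209 bases took 61.8% of its counts over all libraries. The protein-coding share of H2-Q7 counts was 34.6, 42.0, 39.1 and 52.5% in the propyzamide 24 h libraries and 29.2, 55.6, 42.9 and 29.8% in the vehicle 24 h libraries, against 0, 1.97, 3.38 and 0% in propyzamide and 0, 11.7, 2.64 and 14.8% in vehicle libraries without stimulation. The lowest 24 h share was above the highest unstimulated one. At 3 h the share was anywhere from 0 to 52.8%, on 2.39 to 43.5 counts a library. Coding H2-Q7 transcripts had 12.1 to 46.8 CPM at 24 h and 0 to 3.14 CPM without stimulation, and the other transcripts 28.5 to 42.2 CPM and 12.7 to 25.9 CPM at these stages. Both parts were thus higher in all 8 libraries at 24 h than in all 8 unstimulated ones, the coding part by more. How many transcripts of other genes separate in this way was not counted. For other chains, summed over libraries, of which the deepest holds most of the 24 h counts, coding transcripts took 80.3% of the H2-K1 counts at 24 h and 84.9% without stimulation, and 93.0% and 96.0% of the H2-T23 counts. For H2-Q4 they took 61.5% at 24 h and 100% without stimulation with propyzamide, but 100% at 24 h and 91.3% without stimulation with vehicle. For H2-T22 they took 93.5% at 24 h and 75.2% of only 53.2 counts without stimulation. How kallisto divides reads between H2-Q7 transcripts that overlap each other and share 22.4% of their 31-base stretches with H2-Q10 was not tested.

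**Figure D4:**
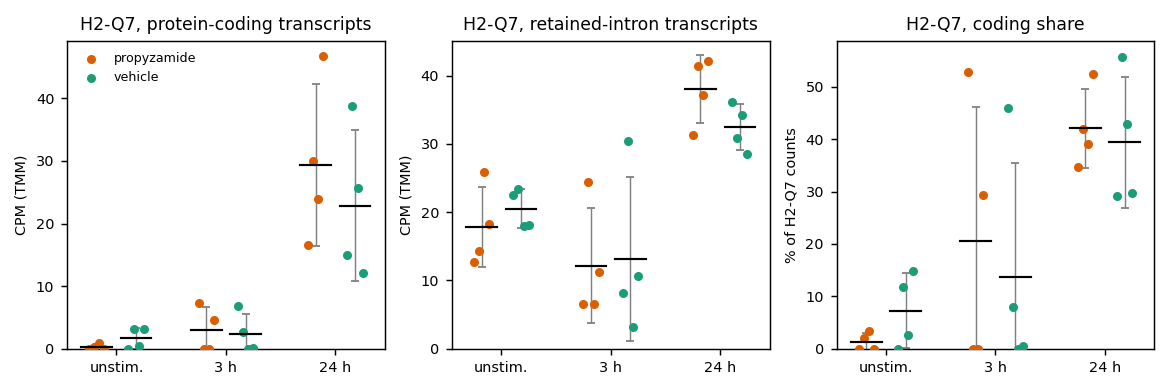
TMM-normalized CPM of the protein-coding and of the retained-intron transcripts of H2-Q7, and the coding share of its counts in percent, per library (points; orange propyzamide, green vehicle), with the mean (black line) and SD (grey bar) of 4 libraries; axes start at 0. The coding share is 29.2 to 55.6% in the 24 h libraries and 0 to 14.8% in the unstimulated ones.

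The genes that feed class I molecules also had higher values at 24 h, with fewer calls. Of 13 genes for peptide loading and the immunoproteasome 12 were tested, with a median of 0.97. All 12 had higher values at 24 h than without stimulation and 2 were called higher. Of the named protein-coding genes 62.2% had higher values there, and 1.45% of all genes tested were called higher. Tap1, a subunit of the TAP peptide transporter, had 8.14 to 39.05 CPM at 24 h and 0.826 to 8.996 CPM without stimulation (2.27 ± 0.45, adjusted p = 0.00374, edgeR). Psmb9, a catalytic subunit of the immunoproteasome, had 3.26 to 18.97 CPM at 24 h and 0.512 to 6.702 CPM without stimulation (1.86 ± 0.44, adjusted p = 0.0138). Tapbp, which encodes tapasin, the chaperone that holds empty class I molecules at TAP, had 1.27 ± 0.38 (adjusted p = 0.0608), and Psmb8, another immunoproteasome subunit, 1.02 ± 0.34 (adjusted p = 0.09501, edgeR). Of 15 genes for transcriptional regulators of class I only 4 were tested, all 4 with higher values and 1 called. Irf1, which binds interferon response elements, had 1.51 ± 0.34 (adjusted p = 0.0129, edgeR). Irf1 was the 1 regulator called at 3 h, with 12.3 to 44.2 CPM at 3 h against 3.35 to 14.5 CPM without stimulation (1.65 ± 0.35, adjusted p = 0.00557, edgeR), a stage at which none of the 9 class I genes was called. Irf9 and Stat2, factors of the interferon response, had 1.22 ± 0.37 and 1.002 ± 0.37 at 24 h, and Irf8, a factor of the same family as Irf1, 0.72 ± 0.400, none of them called. Nlrc5, the transactivator of class I genes, did not pass the filter, with 72 counts in all outside the deepest library.

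Most interferon response genes rose at 24 h. Of 16 such genes 12 were tested, all 12 had higher values at 24 h and 11 were called, with a median of 2.74. Over all genes tested 1.45% were called higher. At 3 h 10 of the 12 already had higher values than without stimulation and 5 were called higher, with a median of 1.09. Of all genes tested 2.29% were called in either direction at 3 h. Ifi27l2a, an interferon-induced gene, had 24.4 to 64.1 CPM at 24 h and 0.826 to 6.68 CPM without stimulation (3.21 ± 0.43, adjusted p = 8.69e-05, edgeR). Gbp2 and Igtp, interferon-inducible GTPases, had 3.53 ± 0.57 and 3.32 ± 0.62, and Cxcl10, a chemokine for activated T cells, 4.15 ± 0.87. Other called genes included Ly6a (2.78 ± 0.45), Bst2 (2.97 ± 0.54), which tethers budding viruses, Irf7 (2.698 ± 0.500), a regulator of type I interferon genes, and Ifitm3 (2.15 ± 0.41). Ifi47 (2.604 ± 0.53) and Irgm1 (1.87 ± 0.41), both GTPases, completed the list with Irf1. MHC class II genes, whose products present peptides to CD4 T cells, had higher values in 9 of 9 at 24 h than without stimulation, with none called and a median of 0.50. H2-Oa and H2-Ob, the chains of a class II modulator of B cells, had 0.95 ± 0.43 and 0.85 ± 0.39, Cd74, the invariant chain, 0.69 ± 0.34 and H2-Aa 0.61 ± 0.36 (adjusted p = 0.224 to 0.3598, edgeR). Against 3 h, 8 of the 9 class II genes were called higher at 24 h, as were 14.2% of all genes tested. Of the 12 genes listed for receptors of class I only Lilrb4a passed the filter (0.66 ± 0.605, adjusted p = 0.581, edgeR). Whether its product binds class I molecules was not tested, so this value does not describe class I receptors as a group. None of 14 other class I-like genes, such as H2-T3, H2-Q10, Cd1d1 and Mr1, did.

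**Figure D5:**
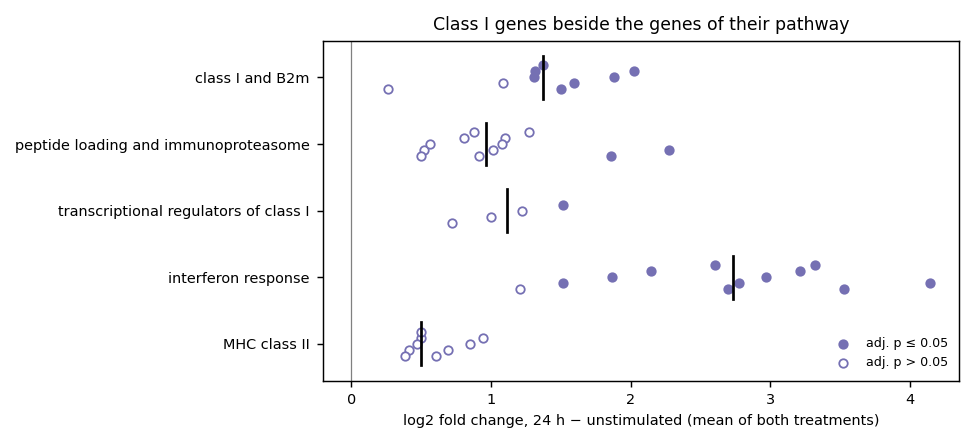
Log2 fold change at 24 h against unstimulated, mean of both treatments, of the 9 class I genes and of the tested genes of 4 related lists (1 point per gene; filled points passed an adjusted p of 0.05; black bars are medians; Irf1 is on 2 lists). Medians are 1.37 for the class I genes, 0.97 for peptide loading, 1.11 for regulators, 2.74 for interferon response and 0.50 for class II.

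Markers of cell types differed between the same stages. Over all genes tested, 1.45% were called higher at 24 h than without stimulation and 2.37% were called in either direction. Summed over named protein-coding counts, the 10 T cell genes had 586 to 1290 CPM at 24 h and 298 to 536 CPM without stimulation. These ranges did not overlap, though how many other sums of genes separate in this way was not counted. Of the 3 T cell genes tested none was called. The 9 B cell genes had 3130 to 7650 CPM at 24 h and 1870 to 4646 CPM without stimulation, with 8 of 9 higher in value and none called. The 16 genes of intestinal epithelium had 308 to 9096 CPM at 24 h and 3475 to 14040 CPM without stimulation, with 0 of 13 tested higher in value and 3 called lower. Their 24 h range was 442 to 9096 CPM with propyzamide and 308 to 693 CPM with vehicle. For propyzamide against vehicle, mean of 3 stages, 13 of 13 tested epithelial genes were higher in value and none was called. Of named protein-coding genes 61.9% were higher in value there. The 6 Paneth cell genes had 3983 to 20420 CPM at 24 h and 18240 to 50050 CPM without stimulation, with 4 called lower. Plasma cell genes had 3082 to 10520 CPM at 24 h and 8728 to 16320 CPM without stimulation, with 2 of 5 tested called lower. The 10 genes of macrophages and monocytes had 616 to 1702 CPM at 24 h and 646 to 1718 CPM without stimulation, and 0 of 5 tested were called. Granulocyte genes had 121 to 599.9 CPM at 24 h and 144 to 579 CPM without stimulation, with 2 of 4 tested called higher. Of these genes Mpo was at 0 in 18 libraries, S100a8 in 10 and Cxcr2 in 1. Stroma and endothelium genes had 205 to 894 CPM at 24 h and 353 to 784 CPM without stimulation. Among them Cdh5 was at 0 in 16 libraries, Vwf in 1 and Pecam1 in 0. At 24 h against 3 h, 22.5% of all genes tested were called in either direction and 14.2% were called higher. So were 2 of the 3 tested T cell genes (median 2.64) and 6 of the 9 B cell genes (median 1.92). The same held for 2 of 5 macrophage and monocyte genes and 1 of 6 Paneth cell genes. Of granulocyte genes and of genes of intestinal epithelium 1 each was called lower in that comparison, and none of the plasma cell or stroma genes tested was called. The part of such shifts in the rise of the class I genes was not tested.

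Across all 24 libraries the genes most like each other included the members themselves. By Pearson's r of log2 CPM among 316 protein-coding genes with a mean log2 CPM of at least 5, the 5 genes nearest H2-K1 were B2m (0.948), Rpsa (0.924), Hspa8 (0.921), H2-D1 (0.920) and Rps24 (0.916). The 5 nearest B2m were H2-D1 (0.959), H2-K1 (0.948), Rps24 (0.890), Ubb (0.880) and Rpl32 (0.877). These values describe libraries that share depth, scaling and stage. Among the members, H2-M3 and H2-Q7 had 0.924 and H2-K1 and H2-Q6 0.911, while H2-Q4 had values from -0.277 with H2-Q6 to 0.222 with H2-T22. Without the deepest library the value for H2-K1 and B2m was 0.943.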

How the data were processed

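Library preparation followed the SMARTseq 2 protocol, per the labels' protocols. Reads were quantified with kallisto on GRCm38, per the submitters' processing notes, which give no version. The deposited files, per the file headers, give expected counts (kallisto's estimate of reads) of 142604 transcripts. They also hold TPM as deposited by the authors, and the effective length in bases, a column of the unit class other, per the file headers. Expected counts were summed to 55401 genes and rounded to whole numbers. No pair of libraries held identical counts. Replicate numbers follow record order, since the labels give none.

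The gene counts went into edgeR 4.0.16 (R 4.3.3) with filterByExpr (3799 genes left), TMM normalization, 1 coefficient per group over 24 libraries and the quasi-likelihood F test. Calls are adjusted p values (Benjamini-Hochberg) of at most 0.05 over the 3799 genes of a comparison, with 15 comparisons in all. CPM are TMM-normalized, standard errors come from the F statistic, and 95% intervals use 18 residual degrees of freedom. The TMM factor was 3.896 in the deepest library, propyzamide 24 h replicate 3, and 0.624 to 1.197 in the other libraries, so its CPM rest strongly on this scaling. The fit was also run on simulated counts with known changes at 24 h. The simulation held no index effect, so it cannot speak to the i5 index, and no result here rests on it. The biological coefficient of variation was 46.4%, and depth limits the low genes further. Named protein-coding genes leave out numbered and clone models, olfactory and vomeronasal receptors and mitochondrial genes. The 9 genes, the pathway and marker lists and the promoter motifs were chosen with earlier results of these data known. Named in the text are all 9 genes, up to 4 tested genes of each pathway list with the smallest p for 24 h against unstimulated plus any called there, and the 5 genes most correlated with H2-K1 and with B2m. 1 gene of the pathway lists is not reported here and was left out of their counts. Coordinates are from GENCODE M21 on GRCm38, matched by gene ID, and promoters from RefSeq, GRCm38.p6.

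Alternatives were RLE normalization, no filter, protein-coding genes only, DESeq2 1.42.0, voom with sample quality weights of limma 3.58.1, only the groups compared, an additive fit of stage, treatment and i5 index, and leaving out each of 24 libraries. Named protein-coding genes only, and a fit without both the shallowest and the deepest library, were added after seeing the data.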

Additional observations from a re-analysis of the deposited data

Results flagged for a closer look

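Levels in the 6 groups of 4 libraries were screened for single libraries far from the other 3, and chance marks about 1 in 20 groups. Of 54 gene and group pairs 6 stood out, 4 of them for H2-T23. In the shallowest library, propyzamide 3 h replicate 3, H2-Q6 was at 0 CPM (next 10.4) and H2-T23 at 2.06 CPM (next 16.8), where 3 counts, the limit that a count of 0 allows, are worth 6.17 CPM. In vehicle 24 h replicate 4 H2-Q6 stood at 15.5 CPM, below the others (next 44.8). H2-T23 stood at 27.6 CPM in vehicle unstimulated replicate 2, above the others (next 13.6), at 37.0 CPM in propyzamide 24 h replicate 2, below the others (next 59.2), and at 55.3 CPM in vehicle 24 h replicate 1, above the others (next 41.8). The calls of H2-Q6 and H2-T23 for 24 h against unstimulated, mean of both treatments, held in each of the 24 fits that left out 1 library.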

How the results depend on the processing

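The rise at 24 h kept 6 to 8 called genes against unstimulated (7) and against 3 h (8), mean of both treatments, in every alternative but one: with the i5 index in the fit, 0 were called against unstimulated. For propyzamide against vehicle, both interactions and 3 h against unstimulated, 0 of the 9 were called in every alternative. Counts that moved were those within a treatment. In the next sentences the number in brackets after a count is that of all genes called in the same fit. For 24 h against unstimulated with vehicle, the main fit called 0 (16), DESeq2 2 (34) and limma-voom 4 (21). The fit of only the groups compared called 6 (64) and the fit without the shallowest and deepest libraries 4 (43). For 24 h against 3 h with vehicle, the main fit gave 0 (0), protein-coding genes only 1 (12) and DESeq2 5 (79). Limma-voom gave 2 (6), only the groups compared 1 (14) and the fit without both libraries 4 (40). For 24 h against unstimulated with propyzamide, the main fit gave 0 (3) and RLE 1 (8). There no filter gave 1 (34), DESeq2 6 (71) and the fit without both libraries 3 (39). For 24 h against 3 h with propyzamide, the main fit gave 6 (579), RLE 8 (891), DESeq2 8 (1044) and limma-voom 7 (685). Protein-coding genes only gave 5 (310), no filter 4 (158) and named protein-coding genes only 4 (128). The fit without both libraries gave 3 (62) and only the groups compared 1 (26). Leaving out 1 library gave 6 to 7 against unstimulated and 7 to 8 against 3 h for the mean of both treatments. It gave 0 to 1 and 0 to 1 with vehicle, and 0 to 4 and 4 to 6 with propyzamide. Over all genes these fits called 62 to 165 and 490 to 1076 for the mean. They called 1 to 30 and 0 to 8 with vehicle, and 0 to 22 and 182 to 874 with propyzamide. Of all genes, 90 were called for 24 h against unstimulated, mean of both treatments, but 62 to 165 with 1 library left out, 155 with no filter, 231 with DESeq2, 225 with limma-voom, 207 without both libraries and 2 with the index in the fit. For 24 h against 3 h the 853 genes became 431 with no filter and 367 over named protein-coding genes, which are fewer genes tested. The causes were not tested.

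Signs turned for these values, none of them called. With the index in the fit, H2-Q4 was -0.82 for 24 h against unstimulated and -0.043 for 3 h against unstimulated. For 3 h against unstimulated, H2-D1 was -0.0016 with RLE and -0.0058 with DESeq2, and B2m -0.0500 with RLE, -0.0393 with no filter and -0.0514 with DESeq2. For 24 h against 3 h, H2-Q4 was 0.0061 with DESeq2. For propyzamide against vehicle, H2-Q7 was 0.107 with RLE, 0.107 with DESeq2, 0.117 with limma-voom, 0.0263 with the index in the fit and 0.0688 without both libraries. Over named protein-coding genes alone, H2-M3 was -0.0198 and B2m -0.0388. Leaving out 1 library gave -0.107 to 0.307 for H2-D1 and -0.191 to 0.228 for B2m at 3 h against unstimulated, and -0.164 to 0.218 for H2-Q7, -0.0170 to 0.653 for H2-M3 and -0.0122 to 0.241 for B2m for propyzamide against vehicle.

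With named protein-coding genes only, the 24 h log2 fold changes against unstimulated were lower by about the 0.18 that these genes' median stood above 0 (H2-K1 1.32, B2m 1.13), and 7 of the 9 stayed called. H2-M3 and H2-T22 had under 10 counts in 18 and 15 of 24 libraries. No paired analysis was possible because the labels give no replicate numbers.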
